A study of Mus musculus with 2 samples.

Results

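Interferon-stimulated monocytes are tumour-infiltrating inflammatory monocytes that carry transcripts of genes induced by interferon. In immune cells from mouse tumours they numbered 1214 of the 27362 cell barcodes that passed the cell filter (28883 were deposited), with 861 in the library named Arg and 353 in the library named Control. They were chosen by counts of unique molecular identifiers (UMIs, each 1 captured RNA molecule) per barcode. A cell needed at least 10 UMIs of the myeloid lysozyme gene Lyz2, at least 3 of the inflammatory monocyte genes Ly6c2 and Plac8 together, and at least 3 of the interferon-induced genes Rsad2, Ifit2 and Cmpk2 together. It could hold at most 10 UMIs of the macrophage complement genes C1qa, C1qb and C1qc, fewer than 3 of the nonclassical monocyte genes Ace, Adgre4 and Treml4, and at most 1 each of the neutrophil pair Csf3r and Cxcr2, the dendritic cell gene Cd209a and the T cell genes Cd3d, Cd3e and Cd3g. Because these measured genes chose the cells, their levels below are descriptions.

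The cells came from tumours that CT26, a mouse colorectal carcinoma line, formed under the skin of BALB/c mice aged 5 weeks. Mice ate a normal diet (Control) or a diet of equal calories from which arginine had been removed, beginning 1 week ahead of tumour cell injection, and tumours were taken on day 20. The label of the Arg library gives no diet, and it is read here as the arginine-deficient arm from the series' design text. Tumours were dissociated with enzymes, CD45-positive (immune) cells were enriched on magnetic beads, and RNA was captured on the 10x Chromium 3′ v3 system. With 1 library per diet and no stated number of mice, every comparison below is between these libraries and not between diets, no test or p-value was made, and all intervals cover counting error only.

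Type I interferons (the alpha and beta families) signal through the receptor chains Ifnar1 and Ifnar2, interferon gamma through Ifngr1 and Ifngr2. The first pathway acts through a complex that holds STAT2 and IRF9 and binds a DNA sequence called the interferon-stimulated response element (ISRE) and switches on antiviral genes. The second acts at gamma-activated sites (GAS) and strongly induces Irf1, guanylate-binding proteins, the chemokine Cxcl9 and MHC class II. Many genes respond to both, and monocytes entering tumours are known to show such programmes.

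RefSeq promoters on GRCm38.p6 (250 bases before to 50 after each annotated start) were searched on both strands for the ISRE core, which is GAAA, any 2 bases and GAAA again, and for the GAS core TTCNNNGAA, which reads the same on either strand. The ISRE letters were found in 3.44% of 32851 promoters and the GAS letters in 8.30%. Of promoters of antiviral effectors outside the selection rule, 16 of 45 (35.6%) held the ISRE letters and 8 (17.8%) the GAS letters. For guanylate-binding proteins and immunity-related GTPases the counts were 10 of 11 (90.9%) and 6 (54.5%), and for the Ifi200 DNA-sensor family 10 of 14 (71.4%) and 1 (7.14%). For MHC class II genes they were 1 of 8 (12.5%) each, and in hypoxia and glycolysis genes 1 of 32 (3.13%) and 0. These promoters did not cover every listed gene. They belonged to 37 genes of 46 listed antiviral effectors and 10 of 18 guanylate-binding proteins and GTPases. For Ifi200 genes the coverage was 12 of 15 and for MHC class II genes 7 of 10.

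The 5 promoters below are shown because their genes carry the main results: the antiviral enzyme Rsad2 that led the selection, the effectors Isg15 and Ifit3, the chemokine Cxcl10, and the transcription factor Irf1, whose level differed between the libraries. Capitals mark the ISRE letters, or the GAS letters in the Irf1 window shown, which held no ISRE letters. Rsad2 lies at chr12:26456403-26456702 (minus strand), with a match 120 bases before the start. Isg15 lies at chr4:156200769-156201068 (minus strand), with 3 overlapping matches that begin 78, 72 and 66 bases before it. Ifit3 lies at chr19:34583279-34583578 (plus strand), with matches at 156 and 122 bases, Cxcl10 at chr5:92348840-92349139 (minus strand), with 1 at 213 bases, and Irf1 at chr11:53769764-53770063 (plus strand), with its GAS match at 90 bases. A second Irf1 window, at another annotated start, held neither motif. No match to either motif was found in the windows of Cmpk2, Cxcl9, Plac8 or Ly6c2, and 1 of the 2 Ifit2 windows held GAS letters. A match is a string of letters and no measured binding.
Rsad2: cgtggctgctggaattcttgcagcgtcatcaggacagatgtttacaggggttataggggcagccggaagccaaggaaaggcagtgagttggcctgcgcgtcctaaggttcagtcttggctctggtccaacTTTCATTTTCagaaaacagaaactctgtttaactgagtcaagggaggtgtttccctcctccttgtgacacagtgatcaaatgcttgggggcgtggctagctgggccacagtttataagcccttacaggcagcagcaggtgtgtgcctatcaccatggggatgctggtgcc
Isg15: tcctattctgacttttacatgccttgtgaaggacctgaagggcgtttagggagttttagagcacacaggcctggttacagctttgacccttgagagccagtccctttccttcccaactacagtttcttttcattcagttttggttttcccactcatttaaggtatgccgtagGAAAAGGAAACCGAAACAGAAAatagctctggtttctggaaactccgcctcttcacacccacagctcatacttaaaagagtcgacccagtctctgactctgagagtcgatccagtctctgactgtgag
Ifit3: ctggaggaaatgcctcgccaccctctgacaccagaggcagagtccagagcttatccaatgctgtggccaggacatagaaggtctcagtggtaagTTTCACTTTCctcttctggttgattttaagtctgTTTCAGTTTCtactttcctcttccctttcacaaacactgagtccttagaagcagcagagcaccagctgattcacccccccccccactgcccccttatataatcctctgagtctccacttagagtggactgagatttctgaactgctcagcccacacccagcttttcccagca
Cxcl10: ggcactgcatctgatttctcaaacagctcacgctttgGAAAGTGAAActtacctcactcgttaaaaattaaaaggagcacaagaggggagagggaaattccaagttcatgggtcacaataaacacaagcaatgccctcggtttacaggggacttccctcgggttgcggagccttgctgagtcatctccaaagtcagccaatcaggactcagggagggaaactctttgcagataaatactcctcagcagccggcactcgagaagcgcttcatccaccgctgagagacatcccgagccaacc
Irf1: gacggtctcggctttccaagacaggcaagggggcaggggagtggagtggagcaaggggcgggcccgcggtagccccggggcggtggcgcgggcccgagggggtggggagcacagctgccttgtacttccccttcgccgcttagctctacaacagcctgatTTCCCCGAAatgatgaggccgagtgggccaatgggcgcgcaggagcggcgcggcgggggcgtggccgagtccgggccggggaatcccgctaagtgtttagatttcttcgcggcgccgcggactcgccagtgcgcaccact

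Before selection, the libraries held 155927693 (Arg) and 191505551 (Control) UMIs. Interferon-stimulated monocytes had medians of 8905 and 9089 UMIs per cell, close to each other, whereas the median over all filtered barcodes was 8594 in Arg and 10395 in Control. The libraries shared 44 barcode sequences, none of them among the selected cells. Scrublet called 34 (3.95%) and 11 (3.12%) of the selected cells doublets; they were kept, and results without them are given where they differ. T cell markers summed to 20.7 CPM (a gene's summed UMIs over all summed UMIs of the cells, scaled to the same total in every group) in Arg and 15.4 CPM in Control, B lineage markers to 6.02 and 2.28 CPM, and fibroblast markers to 57.4 and 82.8 CPM. NK cell markers summed to 282 and 164 CPM, so they moved with the library.

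Outside the rule, the label could be checked on 1 marker. Of 5 given markers only Cxcl10 was not used to choose the cells, and it stood at 1649 CPM in Arg and 1327 CPM in Control, against 384 and 231 CPM in interferon-negative monocytes, which met every other condition but had no UMI of Rsad2, Ifit2 or Cmpk2 (1327 Arg and 924 Control cells). Against macrophages with more than 10 C1q UMIs and the same interferon gene sum (472 and 603 cells), the median of the 13 monocyte markers was higher by 1.39 (Arg) and 2.10 (Control) on the log2 scale. The 9 measured macrophage markers had medians of -1.64 and -1.82 in that comparison. Several of these markers belong to the rule, so these differences describe the gate.

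Interferon-stimulated monocytes took a larger share of the Arg library. They were 6.21% of filtered barcodes in Arg (exact Clopper-Pearson 95% interval 5.81 to 6.62) and 2.62% in Control (2.35 to 2.90), a ratio of 2.37 (2.09 to 2.69). The monocyte gate itself was larger in Arg: cells meeting every condition except the interferon genes, called gated monocytes here, were 20.9% of Arg barcodes (2894 cells) and 11.6% of Control barcodes (1564 cells), a ratio of 1.80. Within gated monocytes, the interferon-stimulated cells were 29.8% in Arg (28.1 to 31.5) and 22.6% in Control (20.5 to 24.7), a ratio of 1.32 (1.16 to 1.5). The step that parted the libraries most was the C1q limit, which left 3735 of 5305 Arg cells and 2052 of 4806 Control cells. With a single library per diet, the spread between mice that these ratios would have to exceed is not known.

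The excess in Arg among gated monocytes lay in cells with few to moderate interferon transcripts. Cells with no UMI of the 3 genes were 45.9% of gated monocytes in Arg and 59.1% in Control. Cells with a sum of 3 were 4.56% and 3.01%, those with 6 to 10 were 7.08% and 5.37%, and those with 11 to 30 were 8.19% and 6.01%. Above 30 UMIs the shares were 3.73% (108 cells, 3.07 to 4.49) in Arg and 3.90% (61 cells, 3.0 to 4.98) in Control, so among gated monocytes the most strongly stimulated cells took similar shares.

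**Figure D1:**
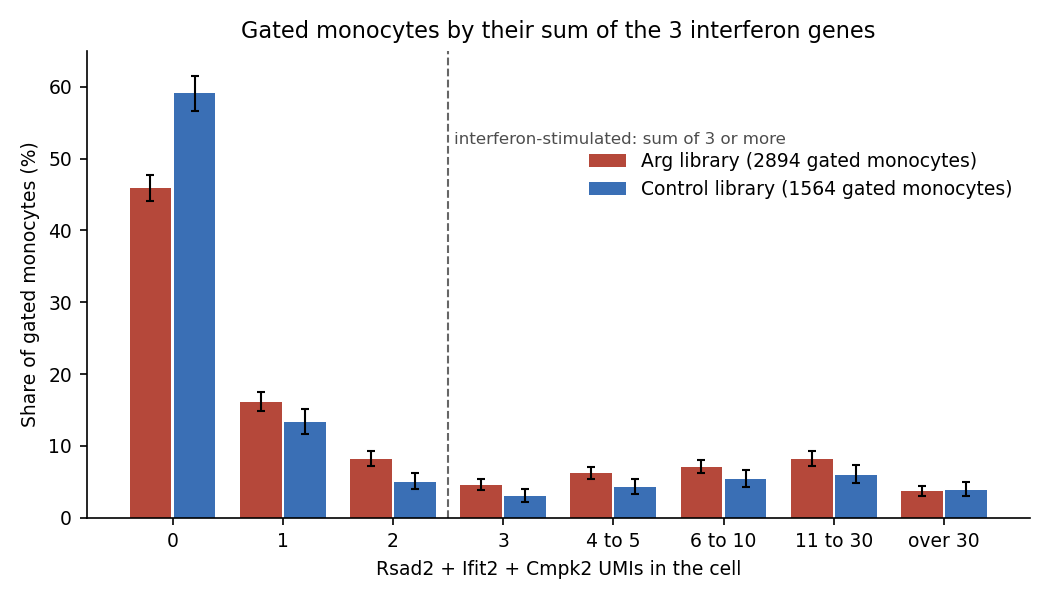
Share of gated monocytes (percent, bars with exact 95% binomial intervals) by the cell's UMI sum of Rsad2, Ifit2 and Cmpk2, in the Arg (red) and Control (blue) libraries; cells right of the dashed line are the interferon-stimulated monocytes. Control has more cells at 0 (59.1% against 45.9%), Arg has more from 1 to 30, and the shares above 30 UMIs lie within each other's intervals.

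The limit of 3 UMIs cut through a continuum. Just outside it, at a sum of 2, lay 238 Arg and 79 Control cells, and just inside, at 3, lay 132 and 47. After each cell was thinned at random to 5000 UMIs, antiviral effectors outside the rule had medians of 63.5 and 61 UMIs per cell at a sum of 2, and 72 and 75 at 3. Cells that failed only the C1q limit numbered 360 in Arg and 492 in Control, more than those that failed any other single condition apart from the interferon genes.

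A higher interferon-positive share in Arg was also seen in other myeloid gates. A sum of at least 3 was found in 23.1% of Arg and 17.0% of Control C1q macrophages and in 39.8% and 23.4% of neutrophils. The neutrophil gate set no limit on Lyz2, Ly6c2 or Plac8, so it may hold monocytes with Csf3r UMIs. Csf3r and Cxcr2 were the only condition failed by 111 Arg and 49 Control cells. In cells with Cd209a the shares were 15.0% and 16.7%, and in T cells 4.76% and 3.89%. After thinning to 2000 UMIs (leaving out 5 and 4 shallower monocytes), any UMI of the 3 genes was found in 30.6% of Arg and 22.9% of Control gated monocytes, and in 22.1% and 15.7% of C1q macrophages. Neutrophils had medians of 5902 and 2653 UMIs before thinning, so their unthinned shares are not at equal depth; thinned, the shares were 45.3% and 33.1%, with 32 and 91 shallower cells left out. T cells, which give a level that free RNA could reach, had 9.61% and 9.01% at the same depth, so the monocyte shares stood above it in both libraries. The difference between monocytes and other gates was not tested.

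Rsad2 encodes viperin, an enzyme that makes a chain-terminating nucleotide from CTP, Cmpk2 is a mitochondrial nucleotide kinase, and Ifit2 binds foreign RNA. Rsad2 (GRCm38 chromosome 12, 26442746 to 26456452) and Cmpk2 (chromosome 12, 26469204 to 26479837) are protein-coding neighbours read in opposite directions, and Ifit2 lies on chromosome 19 (34550694 to 34576419). Rsad2 stood at 975 CPM in Arg and 1384 CPM in Control, Cmpk2 at 124 and 182 CPM, and Ifit2 at 324 and 295 CPM. Rsad2 made up 68.5% of the rule's sum in Arg and 74.4% in Control. The median sum was 7 in Arg and 8 in Control, with maxima of 187 and 232 UMIs, and all 3 genes were found in 38.3% and 39.4% of cells. The 10% of cells with the highest sums carried 41.5% (Arg) and 48.3% (Control) of all these UMIs, so their CPM was weighted towards a strongly stimulated minority.

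Interferon itself was rarely detected. Ifnb1, which encodes interferon beta, had 25 UMIs in 4 Arg cells and 24 UMIs in 3 Control cells among interferon-stimulated monocytes, with 16 and 22 of them in a single cell. In interferon-negative monocytes it had 0 UMIs in 1327 Arg cells, which allows up to 0.226% of cells with a UMI (3 counts of the total, a limit on detection and not on expression), and 1 UMI in Control. Over all filtered barcodes 51 cells in each library held an Ifnb1 UMI. The 14 interferon alpha genes had 11 UMIs in 1 Arg cell and none in the Control cells, which by the same limit allows up to 0.850% of cells with a UMI there. Ifng, made by T and NK cells, was found in 25 Arg (2.90%) and 7 Control (1.98%) interferon-stimulated monocytes. Most cells that carried interferon-induced transcripts therefore held no detected interferon transcript at this depth. Over all filtered barcodes Ifng was found in 13.8% of Arg and 15.0% of Control cells. In T cells thinned to 5000 UMIs it was found in 47.3% and 54.0%, so it was not more often detected in Arg there.

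Receptor chains were present at near-equal levels in both libraries. The type I chain Ifnar1 was at 138 CPM in Arg and 147 CPM in Control, and Ifnar2 at 255 and 278 CPM. The interferon gamma receptor chain Ifngr1 was at 123 and 149 CPM and its partner Ifngr2 at 126 and 120 CPM. None of these 4 receptor genes lay past 1.5-fold on the scale used throughout, log2((CPM Arg + 5)/(CPM Control + 5)), which shrinks the folds of low genes. The cytosolic RNA sensors Ifih1 (184 and 211 CPM) and Ddx58 (98.5 and 103 CPM) and the nucleic acid sensor Zbp1 (435 and 368 CPM) did not either. Of 5888 genes measured in these cells (at least 20 CPM in 1 library and 30 UMIs in all), 122 (2.07%) were past 1.5-fold higher in Arg and 119 (2.02%) past 1.5-fold lower, and 0 of 12 measured sensors and inducers were.

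Among signalling genes 1 of 13, the transcription factor Irf1, was past 1.5-fold. Irf1 stood at 509 CPM in Arg and 266 CPM in Control, a log2 ratio of 0.92 and a ratio of 1.91 (exact interval 1.79 to 2.05). Stat2 was at 154 and 155 CPM, Irf7 at 407 and 401 CPM, and Irf9 at 66.8 and 56.7 CPM. The Arg excess in Irf1 was also present in interferon-negative monocytes, at 353 and 231 CPM. Irf1 is induced mainly through GAS sites, while Irf7 and Stat2 are typical type I interferon targets. Which interferon lay behind the levels in these libraries was not tested.

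Of 11 measured feedback inhibitors, 9 were above equality in Arg and 2 below, with a median log2 ratio of 0.088. Over all 5888 measured genes of these cells, 3163 were above equality, the background for this and the later counts within them. Usp18, which blocks the type I receptor, was at 96.6 CPM in Arg and 140.03 CPM in Control, a log2 ratio of -0.51. Socs1, which inhibits JAK kinases, was at 350 and 182 CPM, with a log2 ratio of 0.92. The ubiquitin-like protein Isg15, counted in this list, was at 1173 and 1160 CPM, almost equal. The JAK kinase Jak2 was at 173 and 133 CPM (0.37) and Stat3 at 298 and 211 CPM (0.49). Socs1 was the only one of 11 measured inhibitors past 1.5-fold.

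Antiviral effectors stood at similar levels in these cells of both libraries. Of 42 measured effectors outside the rule, 0 lay past 1.5-fold, 19 were above and 23 below equality, and the median log2 ratio was -0.011, against 0.023 over all measured genes. Ifit1, which binds uncapped RNA, was at 232 CPM in Arg and 242 CPM in Control, and Ifit3, its partner, at 204 and 256 CPM. The lowest ratio was that of Ifit3b (29.5 and 46.1 CPM, -0.57), a near copy of Ifit3, between which reads may be split. The highest was that of Samhd1, which breaks down nucleotides (1350 and 1069 CPM, 0.34). Over all gated monocytes the same list had a median of 0.24, with 32 of 39 measured genes above equality; there 2.9% of 5936 genes were past 1.5-fold higher and 2.83% lower, and none of the list. That wider set holds the larger interferon-positive share of the Arg library, while the comparison within selected cells fixes a floor on 3 such genes. Interferon-negative monocytes, which held no UMI of those 3 genes, had a list median of 0.21, with 28 of 37 measured genes above equality. The median over all their measured genes was 0.059. The list's summed level in them was near equal, at 9354 CPM in Arg and 9405 CPM in Control. The part of the interferon-positive share in the median of 0.24 was not tested.

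The Ifi200 and Schlafen families were also near equality. Ifi200 proteins sense DNA, and their 12 measured genes had a median log2 ratio of 0.049, from Ifi203 (343 CPM in Arg and 400 CPM in Control) to Ifi208 (37.5 and 27.6 CPM). Schlafen genes, growth and tRNA regulators, had a median of -0.13 over 6 genes, with Slfn4 at 172 and 231 CPM and Slfn9 at 37.9 and 58.2 CPM. In neither family did a gene lie past 1.5-fold.

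Guanylate-binding proteins and immunity-related GTPases, which attack membranes around intracellular microbes, were all above equality in Arg. Of 15 measured genes 15 had a positive log2 ratio, with a median of 0.30, and 2 were past 1.5-fold. Iigp1 stood at 840 CPM in Arg and 477 CPM in Control (ratio 1.76, 1.68 to 1.85), and Irgm1 at 282 and 178 CPM (1.59, 1.46 to 1.73). Gbp5 was close to equal, at 189 and 166 CPM. The gap was wider in interferon-negative monocytes, where 8 of 13 genes were past 1.5-fold and the median was 0.65 (background there, 3.23% higher and 2.75% lower of 5919 genes). Iigp1 in those cells was at 333 and 131 CPM.

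**Figure D2:**
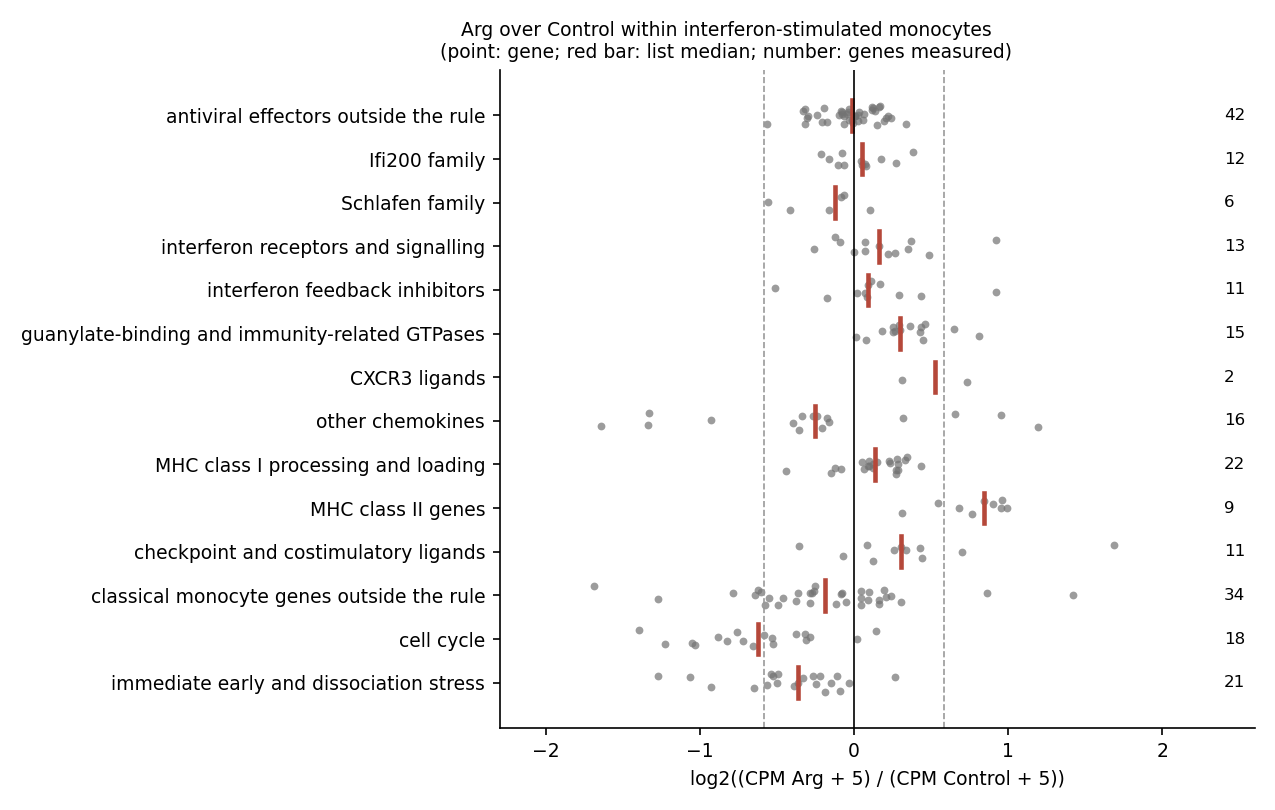
Log2 ratio of CPM (plus 5), Arg over Control, for each measured gene (grey points) of 14 gene lists within interferon-stimulated monocytes; red bars are list medians, dashed lines mark 1.5-fold and numbers at the right count the genes. Antiviral effectors centre on 0 (median -0.011), all 15 guanylate-binding and GTPase genes and all 9 MHC class II genes lie right of 0, and cell cycle genes lie mostly to the left.

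The CXCR3 ligands Cxcl9 and Cxcl10 draw activated T and NK cells. Cxcl10 was at 1649 CPM in Arg and 1327 CPM in Control, a log2 ratio of 0.31. Cxcl9 was at 1041 and 625 CPM, a log2 ratio of 0.73 and a ratio of 1.67 (1.59 to 1.74). In interferon-negative monocytes Cxcl9 was at 690 and 359 CPM, so it was also well expressed in cells without the 3 interferon genes. At 5000 UMIs per cell (33 Arg and 20 Control shallower cells left out), Cxcl9 was found in 63.0% of 828 Arg cells and 42.0% of 333 Control cells (68.6% and 47.3% before thinning). Cxcl10 was found in 64.5% and 54.4% (72.5% and 63.5% before). In T cells thinned to the same depth, with medians of 7573 and 8246 UMIs beforehand, Cxcl9 was found in 14.3% and 7.0% and Cxcl10 in 16.8% and 14.6%, far below the monocytes.

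Both ligands were found together in 44.1% of Arg cells and 29.1% of Control cells, and neither in 16.5% and 32.7%. Among Cxcl9-positive cells, 69.9% (Arg) and 69.3% (Control) also held Cxcl10. Cxcl10 followed the antiviral effectors across cells, with a Spearman rho of 0.35 over 828 Arg cells and 0.31 over 333 Control cells, whereas the values for Cxcl9 were 0.029 and 0.015. The guanylate-binding genes correlated with both, at 0.44 and 0.49 for Cxcl10 and 0.26 and 0.38 for Cxcl9. The rule genes Ly6c2 and Plac8 together followed the antiviral effectors more closely than Cxcl10 did, at 0.67 (Arg) and 0.63 (Control). These cells share a library, so the correlations are descriptions.

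Cxcl10 and Cxcl9 also parted along the rising sum of Rsad2, Ifit2 and Cmpk2. From cells with none to those above 30 UMIs, the median of antiviral effectors went from 47 to 126 of 5000 UMIs in Arg and from 49 to 120 in Control, nearly the same in both. Mean Cxcl10 went from 2.09 to 19.1 UMIs in Arg and from 1.30 to 19.5 in Control, with 12.4 and 5.22 at a sum of 11 to 30. Cxcl9 in Arg was 3.41 at a sum of 0, highest at 11 to 30 UMIs, with a mean of 6.29, and stood at 2.84 above 30. In Control it was 1.76 at a sum of 0, highest at 3, with a mean of 3.87, and stood at 2.48 above 30. MHC class II was 91.6 UMIs at a sum of 0 and 63.2 above 30 in Arg, and 47.7 and 41.2 in Control. The bins come from genes of the rule, and the Control bins above 2 hold 45 to 87 thinned cells, so these are descriptions.

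**Figure D3:**
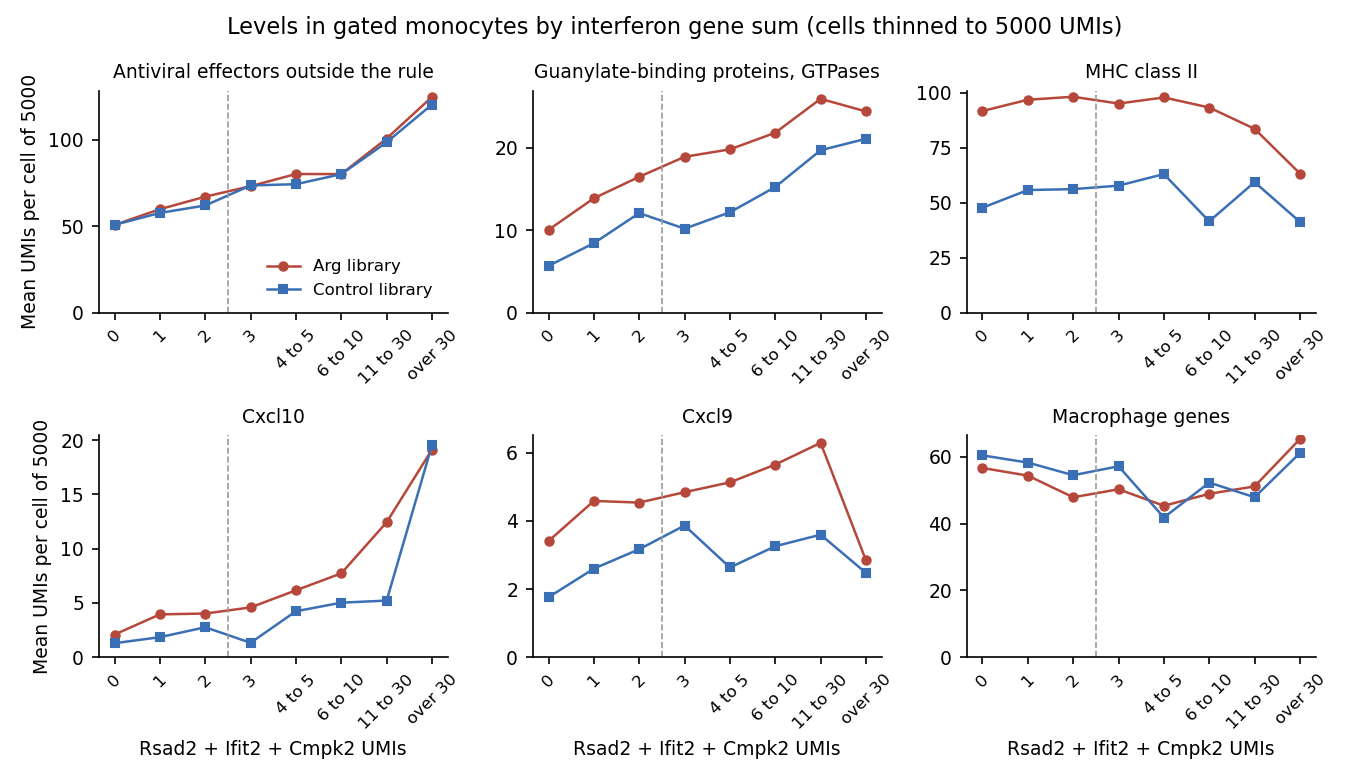
Mean UMIs per cell, after thinning to 5000 UMIs, of 4 gene lists and of Cxcl10 and Cxcl9 in gated monocytes binned by their UMI sum of Rsad2, Ifit2 and Cmpk2, for Arg (red circles) and Control (blue squares); cells right of the dashed line are the interferon-stimulated monocytes. Antiviral effectors follow 1 line in both libraries, Cxcl10 reaches 19.1 and 19.5 UMIs in the last bin, and Cxcl9 and MHC class II are lower in the last Arg bin than in the bins before it.

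Other chemokines differed in both directions, with 3 of 16 past 1.5-fold higher and 4 lower in Arg. Ccl2, the ligand of Ccr2 that recruits monocytes, was at 1819 CPM in Arg and 3473 CPM in Control, a log2 ratio of -0.93. The neutrophil attractants Cxcl1 (105 and 272 CPM) and Cxcl3 (143 and 459 CPM) were lower by 1.33 and 1.65 on the log2 scale. Cxcl3 came from 143 Arg and 63 Control cells, and 5 cells held 53.8% of its Control UMIs; without the 5 highest cells of each library its log2 ratio was -0.95. Cxcl14 was low, at 5.27 and 21.0 CPM. Il1b, at 3342 and 3572 CPM, and the chemokines Cxcl2 (2369 and 2999 CPM) and Ccl4 (2477 and 3258 CPM) were abundant in both.

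On the higher side were Ccl5, Ccl8 and Cxcl16. Ccl5, a chemokine that draws T cells and monocytes, was at 391 CPM in Arg and 168 CPM in Control (ratio 2.33, 2.14 to 2.53). Ccl8 was at 514 and 264 CPM and Cxcl16, the ligand of Cxcr6, at 308 and 194 CPM. In interferon-negative monocytes Ccl8 was at 455 and 310 CPM, within 1.5-fold. It was far higher in interferon-positive C1q macrophages, at 6246 and 4871 CPM, and the part of macrophage RNA in its monocyte level was not tested. Ccl5 was found in 35.7% and 19.8% of thinned cells, but T cells, which make Ccl5, had it in 62.3% and 61.5%, and in Control 5 cells held 37.1% of its UMIs. NK cell markers were higher in Arg in these same cells (282 and 164 CPM), and their part in the Ccl5 level was not tested. The Ccl5 difference was present in interferon-negative monocytes too, at 251 and 81.6 CPM, where NK cell markers were at 319.5 and 95.5 CPM.

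MHC class II genes, which present antigen to CD4 T cells, had the largest list median. All 9 measured genes were above equality in Arg and 7 were past 1.5-fold, with a median of 0.84. H2-Aa stood at 4272 CPM in Arg and 2207 CPM in Control, H2-Ab1 at 2451 and 1256 CPM, and H2-Eb1 at 2361 and 1183 CPM, giving log2 ratios of 0.95 to 0.99. The peptide loader H2-DMa (505 and 345 CPM) and the protease Ctss (2212 and 1784 CPM) were the 2 that did not reach 1.5-fold. Per cell, the list summed to a median of 80 of 5000 UMIs in Arg (quartiles 28 and 135) and 33 in Control (13 and 81), so the ranges overlapped widely. Interferon-negative monocytes showed the same, with a list median of 1.14 and H2-Aa at 4568 and 2021 CPM.

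MHC class II transcripts were also present in cells of other types and may be free in the droplets. T cells held a mean of 2.06 H2-Aa UMIs of 5000 in Arg and 1.01 in Control, against 21.3 and 11.4 in interferon-stimulated monocytes. H2-Aa was found in 89.3% and 71.2% of the monocytes and in 48.4% and 26.1% of T cells. Markers of type 2 conventional dendritic cells, a list that includes H2-DMb2, summed to 492 CPM in Arg and 343 CPM in Control, and those of mature dendritic cells to 97.2 and 132 CPM. The part of either in the difference was not tested.

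MHC class I genes differed less. Of 22 genes of class I presentation 18 were above equality, 0 were past 1.5-fold and the median was 0.13. The peptide transporter Tap1 was at 251 CPM in Arg and 197 CPM in Control, and the class I activator Nlrc5 at 116 and 84.6 CPM.

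Ligands of the inhibitory receptor PD-1 were higher in Arg. Cd274, which encodes PD-L1, was at 844 CPM in Arg and 518 CPM in Control (ratio 1.63, 1.55 to 1.71). Pdcd1lg2, which encodes PD-L2, was at 118 and 33.2 CPM (3.55, 2.96 to 4.29), and in interferon-negative monocytes at 133 and 21.4 CPM. In thinned cells Pdcd1lg2 was found in 30.7% and 9.31% of interferon-stimulated monocytes. T cells had it in 48.8% and 44.2%, so they carry the gene themselves and give no background level for it. These were the 2 of 11 measured checkpoint and costimulatory ligands past 1.5-fold.

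**Figure D4:**
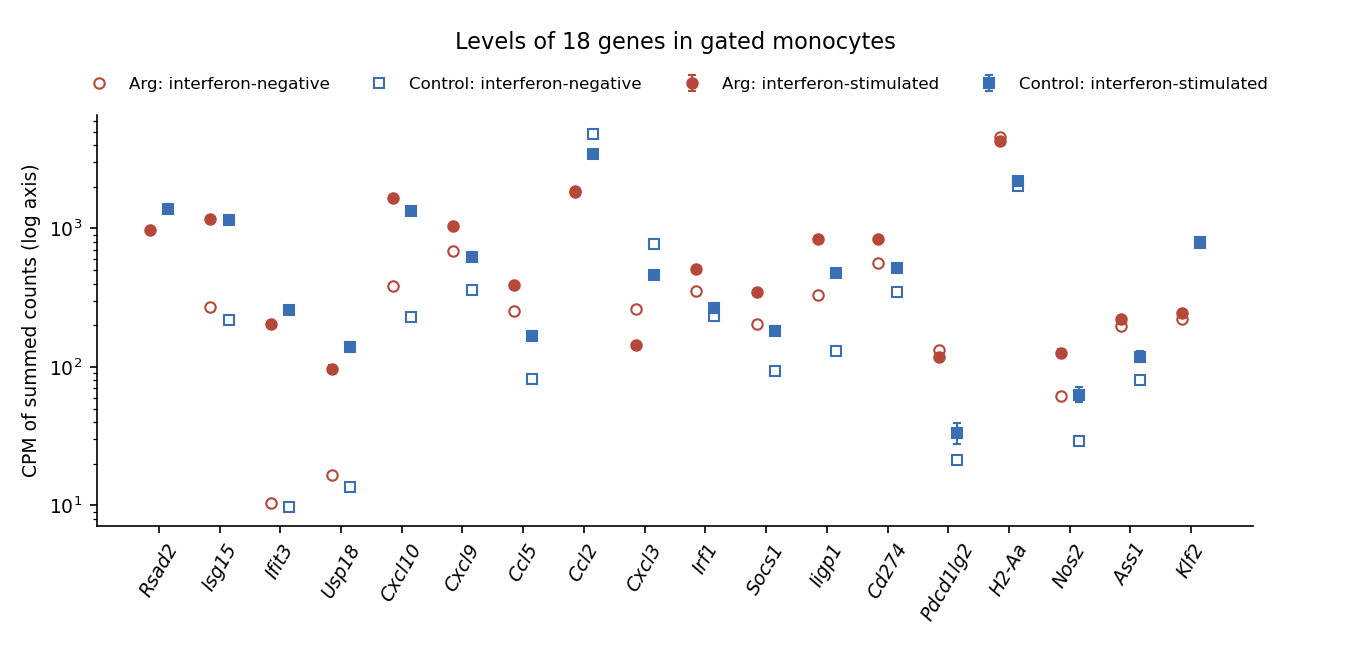
CPM of the summed counts (log axis) of 18 genes in interferon-stimulated monocytes (filled, with exact Poisson 95% intervals, mostly smaller than the symbol) and in interferon-negative monocytes (open) of the Arg (red circles) and Control (blue squares) libraries; Rsad2 has no open symbol because the rule sets it to 0 there. Isg15 is equal between libraries and much lower in open symbols, while H2-Aa and Klf2 differ between libraries and hardly between filled and open symbols.

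Genes of arginine use are of interest because the diet lacked that amino acid. Of 16 measured genes, 2 were past 1.5-fold higher and 1 lower in Arg, with a median of -0.073. Nos2, the inducible enzyme that makes nitric oxide from arginine, was at 126 CPM in Arg and 63.1 CPM in Control. It came from 211 and 39 cells, and 5 cells held 50.2% of its Control UMIs; without the 5 highest cells of each library its log2 ratio was 1.49 in place of 0.95. Ass1, which rebuilds arginine from citrulline, was at 222 and 118 CPM (ratio 1.87, 1.69 to 2.08), from 609 and 183 cells. The arginine transporter Slc7a2 was at 70.9 and 50.1 CPM, and creatine kinase Ckb was lower, at 50.9 and 101 CPM. Genes of the amino acid starvation response had a median of 0.043 over 13, with 1 past 1.5-fold.

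Classical monocyte genes outside the rule had a median of -0.19, with 2 of 34 past 1.5-fold higher and 6 lower. Ly6i, a Ly6 family surface protein, was at 135 CPM in Arg and 47.4 CPM in Control, and Ly6a at 1173 and 643 CPM. Klf2, a quiescence transcription factor, was at 246 and 801 CPM (ratio 0.31, 0.29 to 0.32). Chil3, a chitinase-like marker of newly arrived monocytes, was at 8.82 and 28.4 CPM, and haptoglobin (Hp) at 32.1 and 59.0 CPM. The rule genes Ly6c2 (1050 and 955 CPM) and Plac8 (3303 and 4134 CPM) lay within 1.5-fold.

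Klf2 differed as much in interferon-negative monocytes, at 222 CPM in Arg and 789 CPM in Control, and in thinned T cells it was found in 40.6% and 49.7%. Heat-shock and immediate early genes, which also respond to tissue dissociation, were lower in Arg as well: 20 of 21 lay below equality, the median was -0.36, and 4 were past 1.5-fold. The heat-shock genes Hspa1a and Hsph1, among the lowest of the list, were at 91.4 and 228 CPM and at 36.4 and 81.5 CPM. Among the highest were the immediate early genes Atf3 (984 and 1009 CPM) and Egr2 (122 and 100 CPM), the latter above equality. Whether sample handling differed between the libraries is not given, and the part of dissociation in the Klf2 difference was not tested.

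Macrophage differentiation genes had a median of 0.069 over 23 measured, with 3 past 1.5-fold higher in Arg and 1 lower. The lipid-binding protein Fabp5 was at 911 CPM in Arg and 434 CPM in Control, but 5 cells held 48.4% of its Control UMIs. Its log2 ratio of 1.06 was 0.45 when cells were thinned to 5000 UMIs before selection. The receptor Slamf8 was at 116 and 58.0 CPM and lipoprotein lipase (Lpl) at 49.5 and 26.3 CPM (log2 ratio 0.80, or 0.57 without called doublets, which is under 1.5-fold), whereas Cd72 was at 53.8 and 83.6 CPM. Osteopontin (Spp1) was at 1277 and 1891 CPM.

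In summed counts, 10 of 18 cell cycle genes were past 1.5-fold lower in Arg, with a median of -0.62. Per cell, the list summed to a median of 8 of 5000 UMIs in both libraries and to means of 9.80 and 10.1. H2afz, which lay within 1.5-fold, gave 1256 of the list's 2331 CPM in Arg and 1137 of 2706 CPM in Control. Because that gene weighs so much in the sum, the sum cannot show whether the lower genes differed in the typical cell. Top2a was at 16.2 CPM in Arg, from 49 cells, and at 50.9 CPM in Control, from 41 cells. Mki67 was at 11.1 and 32.7 CPM, from 51 and 33 cells. These genes came from a small part of each library's cells. When cells were thinned to 5000 UMIs before selection, Top2a had a log2 ratio of -0.33 and Mki67 of -0.49, neither past 1.5-fold. Hypoxia and glycolysis genes had a median of 0.11 with 0 of 20 past 1.5-fold, and inflammasome and pattern recognition genes 0.026 with 0 of 14.

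Cytokines and death ligands had a median of -0.10 over 14 measured, with 6 above and 8 below equality. Il12b, lower in Arg, was the 1 gene past 1.5-fold, and 3 cells held all its Control UMIs. The inflammatory cytokines Il1a (33.0 and 50.1 CPM) and Il6 (25.1 and 37.7 CPM) were lower in Arg within 1.5-fold. Il18bp, the soluble trap for interleukin-18, was at 88.4 CPM in Arg and 60.01 CPM in Control, and the interleukin-1 receptor antagonist Il1rn at 448 and 323 CPM. Il15, which sustains NK and CD8 T cells, was found in 42.2% and 42.3% of thinned cells, and in 2.77% and 2.90% of T cells. Tnfsf10, the death ligand TRAIL, was found in 14.1% and 10.2% (ratio interval 0.94 to 2.09), below the 27.5% and 26.0% of T cells, which carry the gene themselves, and above the 2.18% and 1.08% of interferon-negative monocytes.

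The highest ratios over all measured genes often rested on few cells. Retnla, a marker of alternatively activated macrophages, was at 71.2 CPM in Arg and 0.760 CPM in Control, but 5 Arg cells held 93.4% of its UMIs. The same held for Fabp4 (45.5 and 6.33 CPM, 90.8% of Arg UMIs in 5 cells), Igfbp7 (98.3%) and the granzyme Gzmc (84.3%). Without called doublets, the log2 ratio of Retnla was 0.97 in place of 3.73, that of Igfbp7 0.15 in place of 2.38, and that of Gzmc 1.02 in place of 2.67. Gm15056, with 1866 Arg and 147 Control UMIs, was spread over 273 and 35 cells, the protease Mmp25 (56.8 and 12.9 CPM) over 245 and 33, and the nicotinic acid receptor Hcar2 (106 and 31.9 CPM) over 387 and 65. At the low end, Il12b (1.61 and 20.0 CPM) and Ccr7 (6.02 and 34.9 CPM) had all their Control UMIs in 3 and 4 cells.

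Compared with interferon-negative monocytes of the same library, which is the contrast that the rule itself set, 4.84% of 5888 genes were past 1.5-fold higher in Arg and 5.43% in Control, and 0.526% and 0.798% were lower. In both libraries 224 genes (3.8%) were higher and 11 (0.187%) lower. The 5888 genes were filtered on their level in interferon-stimulated monocytes, so genes found mainly in interferon-negative cells could not be counted as lower. B lineage markers, of which 0 were measured, summed to 6.02 against 147 CPM in Arg and 2.28 against 5.34 CPM in Control. The counts of higher and lower genes are therefore not on an equal footing. Isg15 was at 1173 CPM against 269.5 CPM in interferon-negative cells of Arg, and at 1160 CPM against 218 CPM in Control. Usp18 was at 96.6 against 16.6 CPM in Arg and 140.03 against 13.6 CPM in Control. The scavenger receptor Mrc1 (267 against 491 CPM in Arg, 195 against 398 CPM in Control) and fibronectin, Fn1 (246 against 434 CPM, 376 against 810 CPM), were lower.

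Antiviral effectors outside the rule were past 1.5-fold higher for 38 of 42 genes in each library, with median log2 ratios of 1.23 in Arg and 1.43 in Control. Guanylate-binding genes and GTPases had medians of 1.01 and 1.37, with 15 of 15 past 1.5-fold in each. MHC class II had medians of -0.10 and 0.13, and MHC class I 0.22 and 0.44. Receptors and signalling genes had 0.16 and 0.19. Monocytes that carried Rsad2, Ifit2 or Cmpk2 thus also carried the wider set of interferon-induced genes, while MHC class II was much the same in cells with and without them. The monocyte gene Ly6c2 differed as well, at 1050 against 609 CPM in Arg and 955 against 515 CPM in Control.

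**Figure D5:**
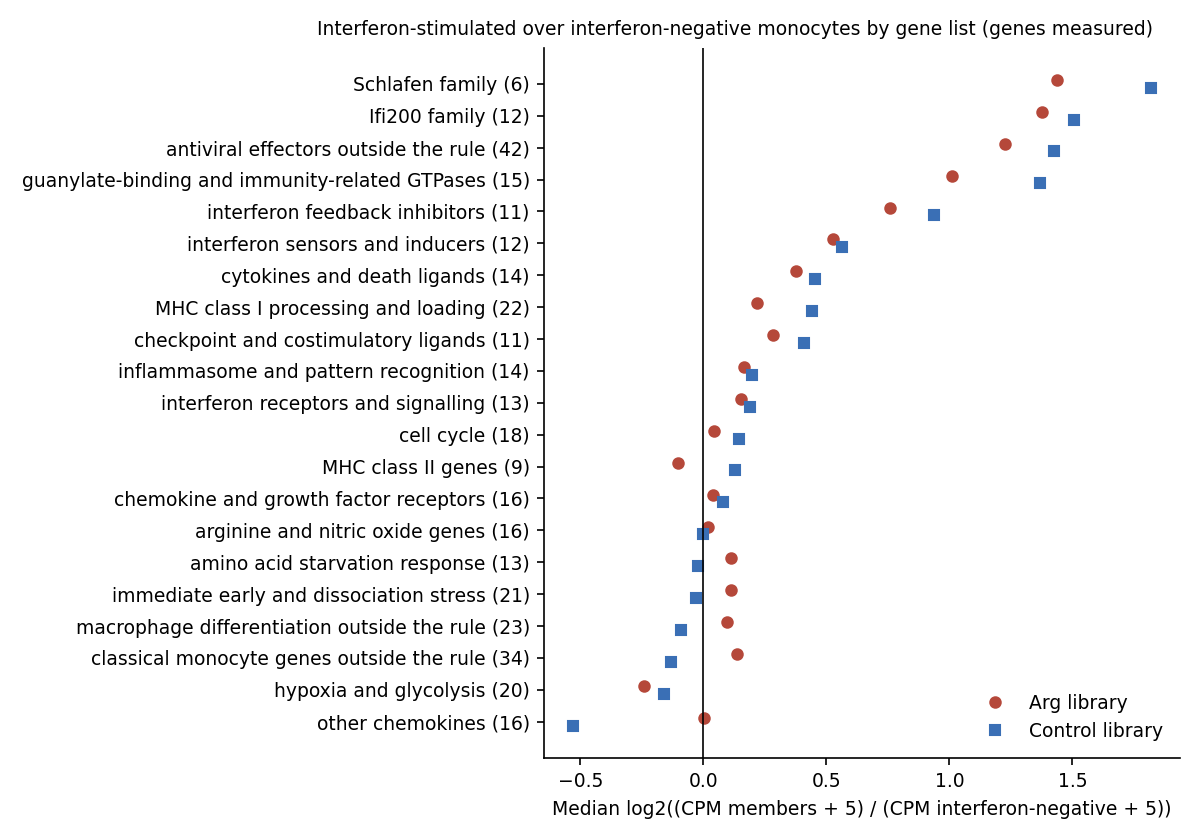
Median log2 ratio of CPM (plus 5), interferon-stimulated over interferon-negative monocytes, for each gene list of more than 2 measured genes (their number in brackets) in Arg (red circles) and Control (blue squares). Schlafen, Ifi200, antiviral and guanylate-binding lists lie furthest right in both libraries, whereas MHC class II lies at -0.10 in Arg and 0.13 in Control; the rule chose the cells in this contrast.

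Interferon-positive C1q macrophages offer the nearest comparison with another cell type. Antiviral effectors were higher in the monocytes by medians of 0.57 in Arg and 0.58 in Control, where 9.46% and 14.5% of all measured genes were past 1.5-fold higher and 4.89% and 6.2% lower. Those genes too were filtered on their level in the monocytes, which limits the count of lower ones. The limit of 3 UMIs was the same in both cell types, but the cells were not of equal depth. Macrophages had medians of 14629 (Arg) and 16544 (Control) UMIs per cell, against 8905 and 9089 in the monocytes. The same limit was thus a lower relative level in macrophages, and the part of this in the differences was not tested. Isg15 was at 1173 against 554 CPM in Arg and 1160 against 552 CPM in Control, and Slfn5 at 665 against 253 CPM and 618 against 207 CPM. Cxcl9 was not higher in monocytes, at 1041 against 1147 CPM in Arg and 625 against 729 CPM in Control. Ccl8 was far lower, at 514 against 6246 CPM in Arg and 264 against 4871 CPM in Control. Between the libraries these macrophages had median log2 ratios of -0.030 for antiviral effectors, 0.46 for guanylate-binding genes and GTPases and 0.93 for MHC class II, beside -0.011, 0.30 and 0.84 in the monocytes (background in the macrophages, 4.92% higher and 2.81% lower of 6114 genes). Over all C1q macrophages, where 5.38% of 6119 genes were past 1.5-fold higher and 3.4% lower, 3 of 37 antiviral effectors were past 1.5-fold higher in Arg and the median was 0.29.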

How the data were processed

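Each value in the deposited matrices is a raw UMI count for 1 of 32285 genes in 1 barcode, not normalized by the authors. The file headers name Cell Ranger 7.0.1 as the counting software, while version 2.2.2 and GRCm38 stand in the submitters' processing notes. No source used here states if introns were counted. No column of samples was left unused (0). Barcodes with at least 200 genes and at most 10% mitochondrial UMIs were kept. Counts were summed over the selected cells of a library and divided by their total to give CPM, and log2 ratios were taken after adding 5 CPM. Genes had to reach 20 CPM in 1 library and 30 UMIs in all. With 1 library per diet a gene was counted as differing past 1.5-fold and no test was run. Shares have exact Clopper-Pearson and CPM exact Poisson 95% intervals, and ratios exact conditional binomial ones. They treat UMIs as independent draws, which UMIs of 1 cell are not. Per-cell values used cells thinned at random (seed 1) to 5000 or 2000 UMIs, without shallower cells. T cells had at least 3 Cd3 UMIs, under 10 of Lyz2 and at most 10 of C1q, and neutrophils at least 3 UMIs of Csf3r and Cxcr2.

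The selection rule, the 22 gene lists and the 17 marker sets were chosen with earlier results of these data known. Genes named are those of the rule, up to 3 highest and 3 lowest of each list, the 12 highest and 12 lowest over all measured genes, the 12 highest and 6 lowest over interferon-negative monocytes, signals over 2000 CPM, and receptor, sensor and interferon genes; other genes named were chosen after their values were seen. Mx1, Mx2, Oas1b, Cxcl11 and a few other list members were not analysed here. The ratio calculation was tested on simulated counts, drawn as independent UMIs without cells. That test did not cover genes whose UMIs lay in few cells. Gene positions came from GENCODE M21 (GRCm38) and promoters from RefSeq (GRCm38.p6). Alternatives covered doublets (Scrublet in scanpy 1.11.5, expected share 8%), the mitochondrial limit, thinning, pseudocounts, filters, cell weighting and TMM scaling (edgeR 4.0.16, R 4.3.3). Other steps ran in Python 3.11.15 (numpy 2.4.6; scipy 1.17.1; pandas 2.3.3), with figures from matplotlib 3.10.9.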

Additional observations from a re-analysis of the deposited data

Results flagged for a closer look

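4 genes were past 1.5-fold higher in interferon-stimulated than in interferon-negative monocytes of the Arg library and past 1.5-fold lower in Control; with 1 library per diet the difference between the libraries was not tested. Col1a2, a collagen chain made by fibroblasts, had log2 ratios of 0.80 in Arg (29.6 against 14.9 CPM) and -1.07 in Control (45.1 against 99.8 CPM), from 31 interferon-stimulated cells in each library. Sparc, another matrix gene, had 1.31 in Arg (39.8 against 13.1 CPM) and -0.71 in Control (28.9 against 50.5 CPM). Retnla had 2.21 in Arg and -2.25 in Control, and 5 Arg cells held 93.4% of its UMIs. Ctla2a, a protease inhibitor gene, had 0.86 in Arg and -1.02 in Control, and 5 Arg cells held 75.8% of its UMIs. Fibroblast markers summed to 57.4 CPM in interferon-stimulated and 42.8 CPM in interferon-negative cells of Arg, and to 82.8 and 229.7 CPM in Control, the same directions as Col1a2 and Sparc; their part in these ratios was not tested.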

How the results depend on the processing

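The share of interferon-stimulated monocytes (log2 ratio 1.196 to 1.31) and their share of gated monocytes (0.36 to 0.46) stayed higher in Arg under all 5 alternatives: doublets removed, a mitochondrial limit of 5%, thinning to 5000 UMIs, and interferon sums of at least 2 or 5. In the thinning alternative the rule was applied to the thinned counts, so it could choose other cells than the main selection. Median log2 ratios of antiviral effectors moved little, from -0.059 to 0.0070 within these cells. Counts of genes past 1.5-fold moved most: 77 higher and 54 lower with a pseudocount of 20 CPM, 52 and 18 among genes of at least 100 CPM, 218 and 282 with no filter but 1 UMI in each library, and 237 and 151 after thinning. Over interferon-negative monocytes, the antiviral medians with a pseudocount of 20 CPM were 1.03 (Arg) and 1.14 (Control). With cells thinned to 5000 UMIs before selection, the ratios of 49 of 95 named genes moved beyond their counting interval and 42 did not. The other 4 changed sign: Il12b (0.060), Retnla (-0.24), Fabp4 (-0.83) and Ccr7 (1.04). Depth and the choice of cells both changed in this alternative, and the cause was not tested. Leaving out, for each gene, the 5 cells per library with the most UMIs (chosen after seeing the data) moved 40 of 95 and turned Ccr7 to 0.41. No paired analysis was possible because each diet has 1 library. Depth limits genes under about 20 CPM, and the mice behind each library remain unknown.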
